A study of Mus musculus with 42 samples.

Results

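Small heat shock proteins are chaperones with an alpha-crystallin domain that hold unfolding proteins in a refoldable state, and several of them are among the most abundant chaperones of striated muscle, where they bind desmin, actin and the proteins of the Z-disc. Bag3 is the co-chaperone that joins Hspb8 to the chaperone Hspa8 and the ubiquitin ligase Stub1, a complex that delivers damaged filamin and other client proteins to autophagosomes, a route called chaperone-assisted selective autophagy. The data described here are the mRNA levels of 8 of these genes, Hspb1, Hspb2, Hspb3, Hspb6, Hspb7, Hspb8, Cryab and Bag3, taken by their gene symbols from a table of 13809 genes. All 8 were in the table and all 8 passed the filter on low values in both sets of libraries.

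RNAseq was performed on tibialis anterior (TA) muscle, a fast hindlimb muscle, of male mice aged 4 months, as 42 libraries in 2 sets prepared from 11 groups. Set 1 (22 libraries) held wild type (WT) mice, TgSesn1 mice carrying human Sesn1 under the muscle MCK promoter (genotype Sesn1SkM-Tg) and TgSesn2 mice carrying human Sesn2 under a tetracycline-regulated promoter driven in muscle by MCK-tTA (Sesn2SkM-Tg), each basal or after immobilization of the right hindlimb with rigid sticks for 3 days. Both transgenes are human and reads were quantified on mouse transcripts, and whether reads of a transgene enter the Sesn1 and Sesn2 values is not given in the sources used here. Set 2 (20 libraries) held WT and Sesn1 KO mice, which lack Sesn1 in all tissues, basal or immobilized. It also held WT mice whose sciatic nerve was cut and a piece taken out 3 days before (denervated). Basal mice underwent neither procedure, and there were 4 libraries in a group, except 3 each for immobilized WT muscle of set 1 and immobilized TgSesn1 muscle. The labels do not state that each library is a separate mouse, so the p-values measure the spread between these libraries. Levels are given as the authors' normalized counts (linear, close to 1 per 1000000 counts). The number of reads behind them is unknown, so no counting error is given. Differences were tested on log2(value + 1) with limma within a set, and a gene was called at a Benjamini-Hochberg adjusted p under 0.05 over all genes tested and a log2 fold change of 0.25 or more in either direction. Fold changes on this scale slightly understate those of low genes such as Hspb3.

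Library sums ran from 722430 to 1276769, and the median sum was lower in each immobilized or denervated group than in its basal group. Scaling all libraries to a sum of 1000000 would raise each gene's log2 change by 0.31 to 0.34 for immobilization in set 1. For immobilization in set 2 it would do so by 0.11 to 0.13 and for denervation by 0.47. Results of the members that turn on this are named below. The gene lists and markers are given without that scaling, with which their falls would shrink or turn in sign. Markers of the muscle fiber were present in every library, with Myh4, the myosin of fast IIB fibers, between 10824 and 62759 normalized counts. Sesn1 was at 41.6 to 77.6 in basal TgSesn1 muscle against 15.0 to 22.1 in basal WT muscle, Sesn2 at 6.54 to 13.0 in basal TgSesn2 muscle against 2.18 to 3.39, and Sesn1 at 9.14 ± 0.676 (SD, n = 4) in basal Sesn1 KO muscle against 25.8 ± 3.67 in basal WT muscle, without overlap. The library labelled Sesn1 KO immobilized replicate 1 held 37.3 of Sesn1, above the lowest immobilized WT library (30.7), and results that rest on it are given with and without it. No value in the table was 0 and in bulk muscle fewer cells of a type and less RNA per cell cannot be told apart.

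The DNA in front of these genes is shown because Hspb1, Hspb7, Hspb8, Cryab and Bag3 rose in both immobilized and denervated WT muscle of set 2, as given below. Windows from 250 bases before to 50 bases after the transcription start were available for 6 members (RefSeq, GRCm38.p6). The heat shock factors bind inverted repeats of the letters GAA, and the windows were searched on both strands for GAANNTTC and TTCNNGAA, each of which reads the same on the other strand. Capitals mark the matches in the 250 bases upstream of the start, printed 5′ to 3′ on the strand of the gene.

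Hspb1: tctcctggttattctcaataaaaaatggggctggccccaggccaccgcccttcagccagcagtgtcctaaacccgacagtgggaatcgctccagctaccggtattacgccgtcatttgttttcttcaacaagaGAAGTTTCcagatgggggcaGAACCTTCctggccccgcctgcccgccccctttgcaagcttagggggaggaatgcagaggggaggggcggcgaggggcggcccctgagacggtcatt
Hspb3: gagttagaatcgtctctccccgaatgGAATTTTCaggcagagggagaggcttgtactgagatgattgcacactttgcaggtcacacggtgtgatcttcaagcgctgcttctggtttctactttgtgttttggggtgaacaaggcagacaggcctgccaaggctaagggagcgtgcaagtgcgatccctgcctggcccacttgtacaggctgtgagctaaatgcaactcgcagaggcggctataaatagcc
Hspb7: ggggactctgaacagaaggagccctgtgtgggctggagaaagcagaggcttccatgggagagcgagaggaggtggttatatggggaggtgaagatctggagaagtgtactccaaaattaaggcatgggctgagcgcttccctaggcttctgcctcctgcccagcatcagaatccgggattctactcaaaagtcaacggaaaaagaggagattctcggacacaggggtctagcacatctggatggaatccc
Hspb8: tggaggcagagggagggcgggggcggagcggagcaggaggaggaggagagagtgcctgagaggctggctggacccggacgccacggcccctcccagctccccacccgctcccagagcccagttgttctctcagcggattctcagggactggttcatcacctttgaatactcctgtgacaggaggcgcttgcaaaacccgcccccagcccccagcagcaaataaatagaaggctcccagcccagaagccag
Bag3: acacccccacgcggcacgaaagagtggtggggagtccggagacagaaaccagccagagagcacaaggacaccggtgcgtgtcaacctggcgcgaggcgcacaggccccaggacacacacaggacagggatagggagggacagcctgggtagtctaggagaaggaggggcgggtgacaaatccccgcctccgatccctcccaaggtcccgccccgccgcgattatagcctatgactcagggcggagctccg

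Hspb1, on chromosome 5 (chr5:135887669-135887918, plus strand), held 2 matches that began 117 and 97 bases before the start. Hspb3 (chr13:113663677-113663926, minus strand) held 1, which began 224 bases before the start, and Hspb7 (chr4:141420529-141420778, plus strand) held none. The windows of Hspb8 (chr5:116422865-116423114, minus strand) and Bag3 (chr7:128523333-128523582, plus strand) held their 1 match each behind the start, 2 and 42 bases downstream and thus outside the letters printed. Hspb6 has 2 windows, of which the one further downstream held 1 match. Matches were thus found in 5 of the 6 members and in 5 of their 7 windows, while 15.1% of all 32851 windows of this length held at least 1. Among these 5 members, Hspb3 was not called on denervation and Hspb6 fell, as given below. No member held the form with 3 units in a row (GAA, TTC and GAA with any 2 bases between neighbours, or its reverse complement), found in 0.603% of all windows. Hspb2 and Cryab are not analysed here in this respect.

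In basal WT muscle of set 2, the order of the members per kilobase of exon (GENCODE M21) was led by Hspb6 (311 ± 11.9 normalized counts per kb, SD, n = 4), a small heat shock protein of muscle also called Hsp20. Cryab, the alpha B-crystallin that protects desmin, followed at 203 ± 21.0 per kb and Hspb8, the partner of Bag3, at 152 ± 27.5 per kb, and the libraries of Cryab and Hspb8 overlapped. Hspb2 (57.6 ± 5.32), Hspb1 (53.8 ± 12.3), Hspb7 (52.7 ± 9.75) and Bag3 (42.8 ± 2.97 per kb) were close together, and among these the ranges of Hspb2, Hspb1 and Hspb7 overlapped, as did those of Hspb1, Hspb7 and Bag3. Hspb3 was the lowest at 19.4 ± 3.33 per kb. In immobilized WT muscle the order was Hspb7 (833 ± 129.8 per kb), Cryab (753 ± 138) and Hspb6 (665 ± 64.3), whose neighbours in this order overlapped, followed by Hspb8 (384 ± 51.1) and Hspb1 (295 ± 95.9), which overlapped too. In denervated muscle Hspb8 (1116 ± 146 per kb) and Cryab (1072 ± 249) overlapped at the top, ahead of Hspb7 (689 ± 42.1), and Hspb6, behind Hspb1 (409 ± 96.7), stood at 170.1 ± 27.7 per kb. The 8 members summed to 1607 to 1796 normalized counts in basal, 5181 to 7234 in immobilized and 6145 to 7871 in denervated WT libraries of set 2.

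**Figure D1:**
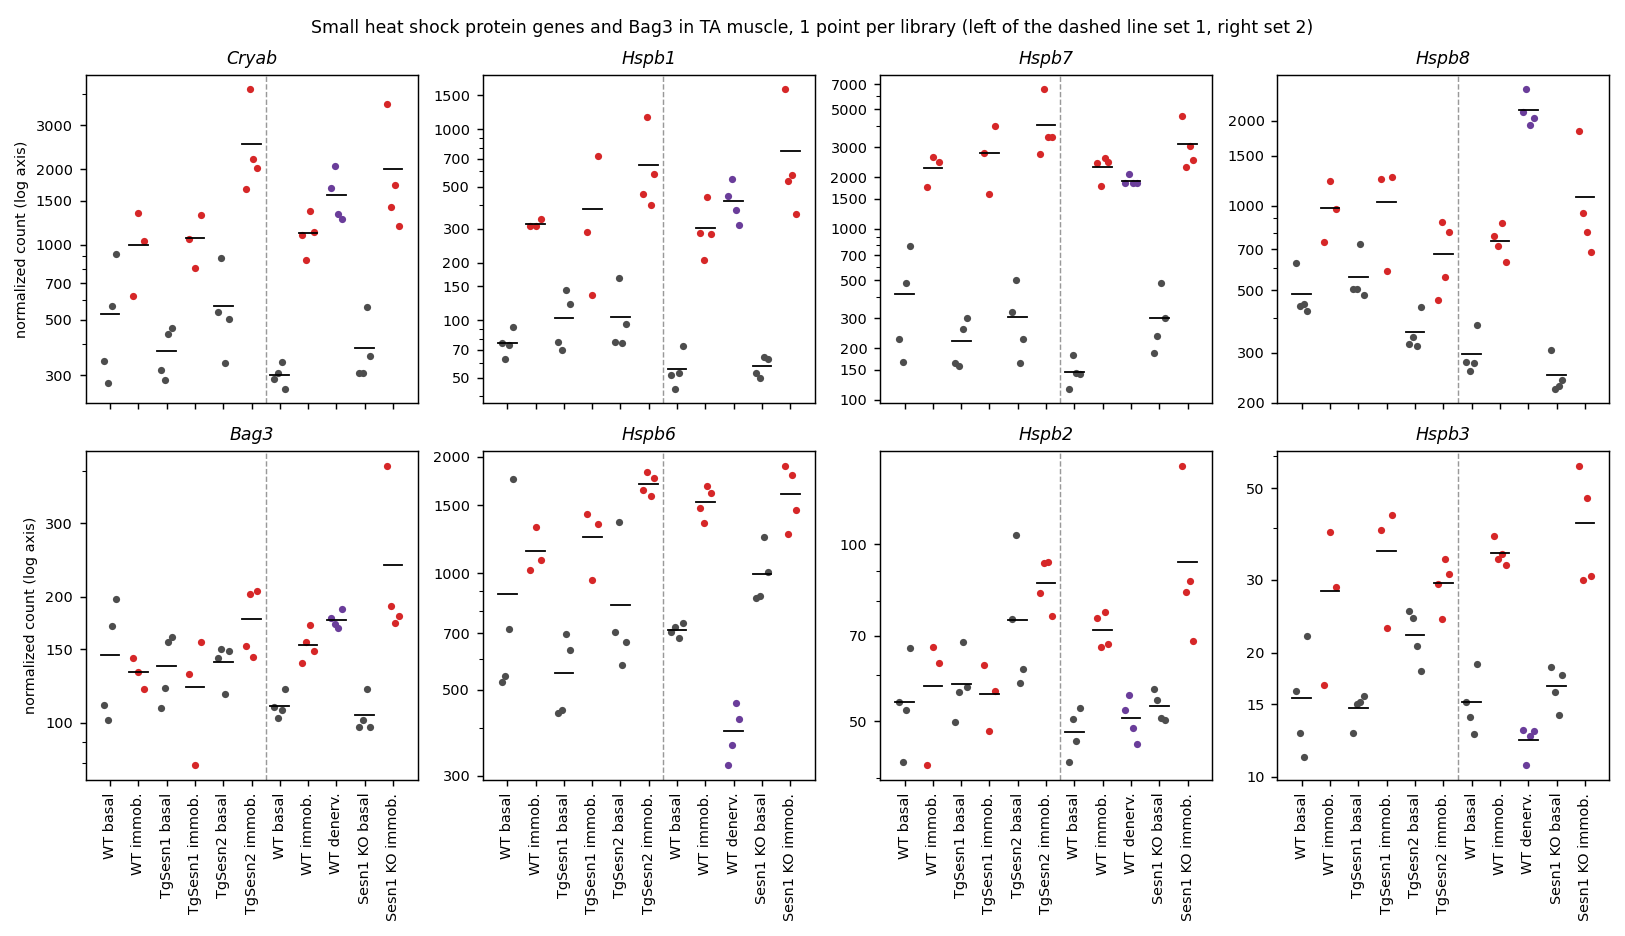
Normalized counts (log axis) of the 8 genes in every library, 1 point per library and a bar at the group mean, with the 11 groups on the x axis, set 1 left and set 2 right of the dashed line, basal libraries grey, immobilized red and denervated purple. Hspb7 and Hspb1 were higher in each disuse group than in the basal muscle of the same genotype apart from 1 TgSesn1 library for Hspb1 (135), while Hspb6 was at 320.0 to 464 in denervated and at 1351 to 1682 in immobilized WT muscle of set 2.

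Immobilization of WT muscle was examined in both sets. In set 2 all 8 members were called higher (8 of 8), where 33.9% of all genes were called and 16.2% were called higher, and the median log2 change of the members was 1.25 against -0.02 over all genes. In set 1, 4 of 8 members were called, all higher (background 29.3% called, 14.9% higher), with a median of 0.90 against 0.00. The members that were called in both sets were Hspb1, Hspb3, Hspb7 and Hspb8.

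Hspb7, a small heat shock protein of heart and skeletal muscle that limits the aggregation of filament proteins, changed most. Its basal WT libraries of set 2 held 116, 182, 143 and 142 normalized counts, and the immobilized ones 2407, 1782, 2593 and 2447. The groups were far apart, with a ratio of means of 15.8 (log2 fold change 3.98, SE 0.23, limma adjusted p = 1.84e-10). In set 1 the basal WT libraries spread from 166 to 795 (227, 166, 480.2 and 795) and the immobilized ones held 1763, 2623 and 2453, which gave a log2 fold change of 2.69 (SE 0.45, limma adjusted p = 0.000258).

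Hspb1, also called Hsp25 in the mouse, an actin-binding chaperone induced by many stresses, was the next in size. It rose from 51.4, 43.8, 52.9 and 73.5 to 287, 205, 441 and 281 in set 2 (log2 fold change 2.40, SE 0.31, limma adjusted p = 5.44e-06) and from 76.1, 62.3, 73.9 and 91.7 to 310.1, 312 and 339 in set 1 (2.07, SE 0.41, limma adjusted p = 0.00108). No immobilized library overlapped a basal one in either set.

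Cryab rose in set 2 from 289, 306, 339.8 and 266 to 1091, 869, 1366 and 1128 (log2 fold change 1.87, SE 0.26, limma adjusted p = 1.16e-05). In set 1 its basal libraries held 344, 279, 568 and 919 and its immobilized libraries 621, 1344 and 1030.2, so the groups overlapped, and its log2 fold change of 1.00 (SE 0.38) missed the threshold (limma adjusted p = 0.0502). The basal library at 919 is WT basal replicate 4, and without it Cryab was called (1.32, limma adjusted p = 0.0102), as it was without immobilized replicate 1 (1.31, limma adjusted p = 0.0236). Hspb6 depended on the same basal library, in which it stood at 1752 against 525 to 719 in the other basal libraries. With it the log2 fold change of Hspb6 in set 1 was 0.55 (limma adjusted p = 0.209), and without it 0.94 (limma adjusted p = 0.00897). Myh4 was lower in this library (32794) than in the other basal WT libraries of set 1 (36273 to 56193), and the summed Myh1 and Myh2, the myosins of IIX and IIA fibers, were higher (29551 against 5327 to 20702); their part in the result was not tested.

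In set 2 Hspb6 was even among basal WT libraries (705, 725, 682 and 746) and rose to 1470.4, 1351, 1682 and 1614 on immobilization (log2 fold change 1.09, SE 0.14, limma adjusted p = 4.02e-06). Hspb8 rose from 278, 258, 277 and 377 to 779, 718, 868 and 632 (1.34, SE 0.21, limma adjusted p = 4.99e-05) in set 2 and from 625, 440.4, 449 and 422 to 739.5, 1218 and 976 (1.00, SE 0.26, limma adjusted p = 0.00698) in set 1. The groups did not overlap for either gene in set 2, nor for Hspb8 in set 1. Hspb3, which forms a complex with Hspb2 in muscle, rose from 15.2, 14.0, 12.7 and 18.8 to 38.3, 33.7, 34.8 and 32.6 in set 2 (1.16, SE 0.16, limma adjusted p = 1.38e-05). In set 1 the immobilized Hspb3 libraries held 16.7, 39.3 and 28.9 against 16.1, 12.8, 11.2 and 22.0, and the call there (0.79, limma adjusted p = 0.0204) was lost without either of basal replicates 2 and 3 or of immobilized replicates 2 and 3 (0.52 to 0.74, limma adjusted p = 0.0549 to 0.150).

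Hspb2 and Bag3 showed the smallest changes. Hspb2, a small heat shock protein of striated muscle, was at 42.6, 50.5, 46.4 and 52.6 in basal and at 74.9, 67.0, 76.7 and 67.8 in immobilized WT libraries of set 2 (log2 fold change 0.57, SE 0.14, limma adjusted p = 0.00293). In set 1 it was at 42.7 to 66.8 and 42.1 to 67.0 (0.08, limma adjusted p = 0.792). Bag3 was at 109, 102, 107 and 120.3 in basal and at 139, 156, 171 and 148 in immobilized libraries of set 2, where the groups did not overlap (0.48, SE 0.18, limma adjusted p = 0.0415), yet the call was lost when any of basal replicates 1, 2 and 3 or immobilized replicates 2, 3 and 4 was left out (0.43 to 0.50, limma adjusted p = 0.0573 to 0.110). In set 1 Bag3 was at 110.3, 102, 170.2 and 198 in basal and 143, 132 and 120.2 in immobilized WT muscle (-0.08, limma adjusted p = 0.813).

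The immobilization effect of each member was lower in set 1 than in set 2, by 0.33 (Hspb1) to 1.28 (Hspb7) on the log2 scale. None of these 8 differences passed the test of the difference itself in limma (0 of 8, lowest adjusted p = 0.137; 2 of 8 at an unadjusted p under 0.05), where 6.2% of all genes were called and 22.4% had an unadjusted p under 0.05. How the sets were brought to one scale is not given in the sources used here, so levels were not compared across them.

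**Figure D2:**
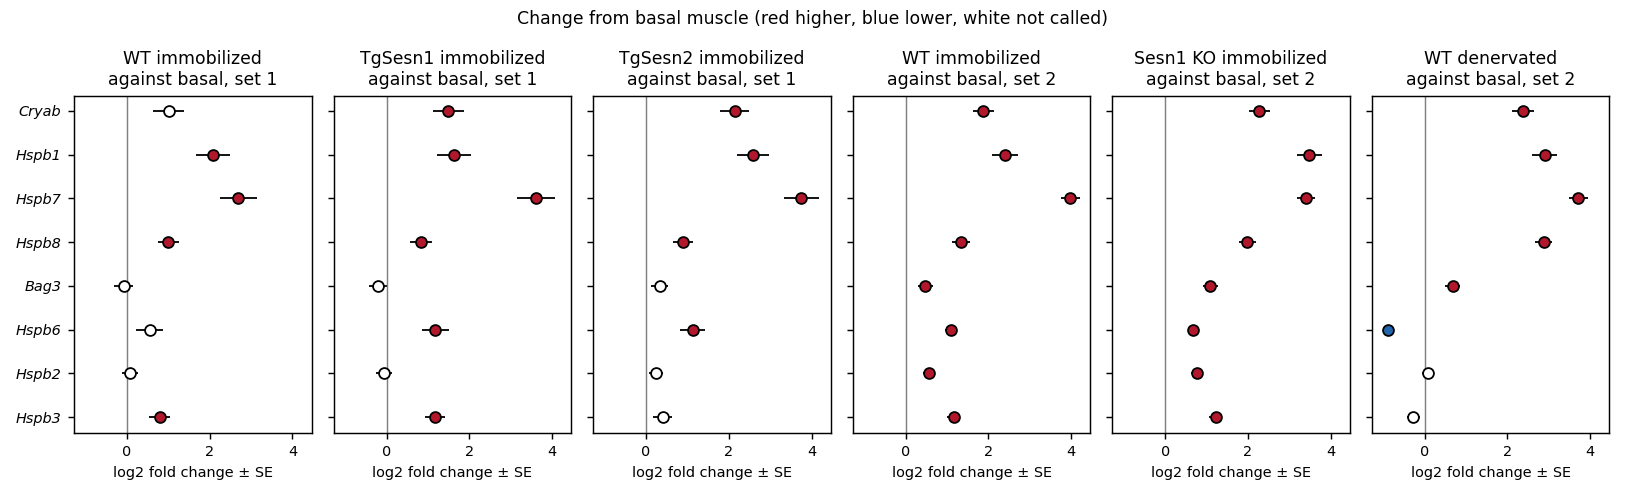
Log2 fold change (x axis, points, with bars of 1 SE from limma) of each of the 8 genes (y axis) for 5 immobilization comparisons and denervation, red where called higher, blue where called lower and white where not called. The change of Hspb7 lay between 2.69 and 3.98 in all 6, and the change of Hspb6 was -0.88 on denervation and 0.55 to 1.18 on immobilization.

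Denervation of WT muscle raised 5 of the 8 members and lowered 1 (background 55.5% called, 27.8% higher and 27.7% lower), with a median log2 change of 1.53 against -0.03 over all genes. Hspb7, Hspb1, Hspb8, Cryab and Bag3 rose, and Hspb6 fell. The immobilized and denervated groups were compared with the same basal libraries, so a deviation of these enters both.

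Hspb8 separated the 2 forms of disuse most clearly among the members that rose. Its denervated libraries held 2156, 2581, 1929 and 2039 normalized counts against 258 to 377 in basal muscle (log2 fold change 2.87, SE 0.21, limma adjusted p = 3.35e-10). Each was also above all immobilized libraries (632 to 868), and the direct comparison of denervated with immobilized muscle gave 1.54 (SE 0.21, limma adjusted p = 6.34e-06). Hspb7 rose to 1854, 2083, 1839 and 1858 (3.72, SE 0.23, limma adjusted p = 2.21e-11), Hspb1 to 447, 547, 376 and 315 (2.90, SE 0.31, limma adjusted p = 8.73e-08) and Cryab to 1685, 2063, 1326 and 1267 (2.37, SE 0.26, limma adjusted p = 1.12e-07). These 3 genes overlapped with their immobilized libraries. Bag3 rose to 178, 172, 168 and 187 (0.68, SE 0.18, limma adjusted p = 0.00268), a ratio of means of 1.61, beside the 7.32 of Hspb8.

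Hspb6 moved in opposite directions. It fell to 320.0, 359.5, 464 and 421 in denervated muscle, below every basal library (-0.88, SE 0.14, limma adjusted p = 1.33e-05), and was 0.256 of its immobilized mean (-1.97, SE 0.14, limma adjusted p = 7.00e-10). Hspb3 was at 13.0, 10.7, 12.6 and 12.9 in denervated muscle, which overlapped with basal muscle (-0.27, limma adjusted p = 0.160) and lay below every immobilized library (-1.43, SE 0.16, limma adjusted p = 5.82e-07). Hspb2 was at 52.4, 55.4, 48.7 and 45.9, again overlapping with basal muscle (0.07, limma adjusted p = 0.669) and below immobilized muscle (-0.49, SE 0.14, limma adjusted p = 0.00685). In all, denervated against immobilized muscle gave 4 of 8 members called, 1 higher and 3 lower (background 38.9% called, 20.5% higher and 18.4% lower). With library sums scaled to 1000000, Hspb2 was called higher on denervation (0.53, limma adjusted p = 0.00159) and no longer lower than in immobilized muscle (-0.16), and Hspb3 turned to 0.16 (limma adjusted p = 0.351), whereas Hspb6 was still called lower than in basal muscle (-0.42, limma adjusted p = 0.00414). With that scaling Cryab (0.84, limma adjusted p = 0.00900), Hspb1 (0.84, limma adjusted p = 0.0281) and Bag3 (0.54, limma adjusted p = 0.0157) were called higher in denervated than in immobilized muscle, which they were not as reported (0.50, 0.50 and 0.20).

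**Figure D3:**
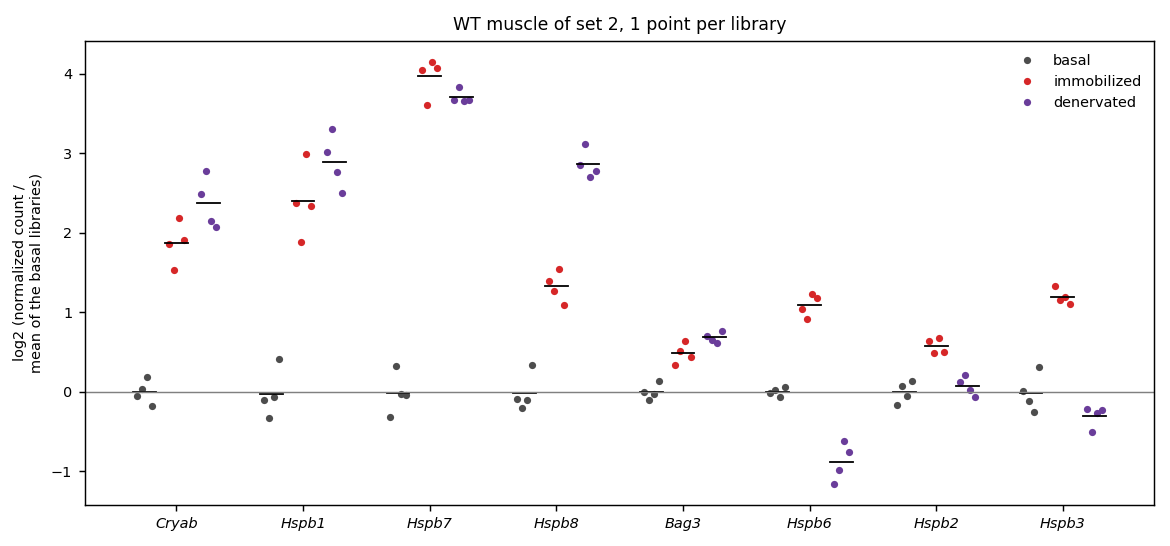
Log2 of each library's normalized count over the mean of the basal libraries (y axis) for the 8 genes (x axis) in WT muscle of set 2, 1 point per library with a bar at the mean, basal grey, immobilized red and denervated purple. Hspb8 was higher after denervation than after immobilization, and Hspb6, Hspb2 and Hspb3 were lower.

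Other cell and fiber types moved with these groups. The 6 muscle fiber markers summed to 91845 to 104899 in basal, 77862 to 83050 in immobilized and 44785 to 58330 in denervated WT muscle of set 2, with 3 of 6 called lower on immobilization and 6 of 6 on denervation. Myh1 and Myh2 together were at 10123 to 16593 in basal, 14497 to 22572 in immobilized and 3571 to 5064 in denervated muscle, the order that Hspb6 also showed. The 7 slow fiber markers summed to 64.3 to 148, 138 to 174 and 69.2 to 108.9, and the 6 smooth muscle and pericyte markers, cells that also express Hspb6 and Cryab, to 415 to 640.2, 216 to 395 and 217 to 272, with 4 of 6 called lower on immobilization and 5 of 6 on denervation. In set 1 the smooth muscle and pericyte markers moved the other way, from 191 to 336 in basal to 448 to 558 in immobilized WT muscle, and 3 of 6 were called higher there, 6 of 6 in TgSesn1 and 5 of 6 in TgSesn2 muscle. The 5 endothelial markers summed to 262 to 336 in basal, 150.3 to 237 in immobilized and 133 to 168 in denervated WT muscle of set 2 (5 of 5 called lower in both), and in set 1 to 169 to 231 in basal and 227 to 266 in immobilized WT muscle (2 higher and 1 lower). The 5 fibroblast markers summed to 422 to 668, 440.0 to 1332 and 288 to 462 in set 2 (0 called on immobilization, 2 lower on denervation) and to 336 to 796 in basal and 757 to 1362 in immobilized WT muscle of set 1 (3 of 5 called higher). The 4 Schwann cell markers summed to 19.8 to 40.4, 15.2 to 25.1 and 10.8 to 12.9 in set 2 (0 called on immobilization, 1 lower on denervation). In set 1 they summed to 8.16 to 19.1 in basal and 23.8 to 52.5 in immobilized WT muscle (3 of 4 called higher). The 4 satellite cell markers summed to 25.9 to 29.9 in basal, 17.3 to 23.3 in immobilized and 99.8 to 122 in denervated muscle. Of these, only 1 of 4 was called lower on immobilization and only 1 of 4 higher on denervation. The 6 macrophage and leukocyte markers in the table summed to 27.0 to 126, 95.5 to 186 and 40.0 to 106 in set 2 (2 of 6 called higher on immobilization, 1 of 6 on denervation). In set 1, where all 6 of these were called higher on immobilization, they summed to 33.5 to 49.7 in basal and 156 to 334 in immobilized WT muscle. Their part in the changes of the members was not tested.

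Immobilization was also compared with basal muscle in each modified genotype. In TgSesn1 muscle 6 of 8 members were called, all higher (background 34.7% called, 18.2% higher), and Hspb2 and Bag3 were not. Hspb7 rose from 164, 157, 258 and 303 to 2788, 1590.5 and 3992 (log2 fold change 3.62, SE 0.45, limma adjusted p = 1.67e-05). TgSesn1 immobilized replicate 2 was the lowest of the 3 libraries for all 8 members. Hspb1, at 290.0, 135 and 723 after immobilization against 69.9 to 144, overlapped with basal muscle (1.62, limma adjusted p = 0.00488) and lost its call without replicate 3 (1.00, limma adjusted p = 0.0665). Hspb8 (0.83, limma adjusted p = 0.0180) lost its call without immobilized replicate 1 (0.65, limma adjusted p = 0.0846) or 3 (0.64, limma adjusted p = 0.121).

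In TgSesn2 muscle 5 of 8 members were called, all higher (background 30.7% called, 15% higher). These were Hspb7, Hspb1, Cryab, Hspb6 and Hspb8. Hspb7 reached 2723, 6516, 3419 and 3420.3 from 165 to 505 (3.75, SE 0.42, limma adjusted p = 1.89e-06). Cryab reached 1675, 4172, 2206 and 2025 from 337 to 887 (2.15, SE 0.35, limma adjusted p = 0.000111). Replicate 2 held the highest immobilized value of both, and without it the same number of members was called, with changes of 3.49 for Hspb7 and 1.87 for Cryab. With library sums scaled to 1000000, all 8 members were called higher.

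In Sesn1 KO muscle 8 of 8 members were called higher (background 37.1% called, 17.2% higher). Hspb1 rose from 53.0, 49.8, 63.9 and 62.5 to 1612, 533, 573 and 358 (3.49, SE 0.31, limma adjusted p = 3.09e-08), beside 3.40 for Hspb7 (SE 0.23, limma adjusted p = 7.96e-10). Replicate 1 stood above the other 3 immobilized Sesn1 KO libraries for each of the 8 members, among them Cryab (3659.9 against 1189 to 1732), Bag3 (411 against 173 to 190.3) and Hspb8 (1842 against 682 to 942). This is the library whose Sesn1 level was above that of an immobilized WT library. Without it all 8 members were still called higher, with changes of 3.05 for Hspb1, 3.20 for Hspb7, 1.94 for Cryab, 1.69 for Hspb8 and 0.79 for Bag3.

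The question whether Sesn1 or Sesn2 dose altered these genes was addressed by comparing genotypes within a treatment. After immobilization Sesn1 was at 19.4 to 37.3 in Sesn1 KO and 30.7 to 53.1 in WT libraries of set 2. The range in immobilized Sesn1 KO muscle also overlapped with that of basal WT muscle (22.5 to 29.7). In basal TgSesn2 muscle Sesn1 was lower than in basal WT muscle (10.6 ± 2.44 against 18.5 ± 3.37, SD, n = 4), without overlap. The basal TgSesn2 comparison thus differs in both sestrins. After immobilization Sesn1 overlapped there (13.9 to 16.2 against 12.4 to 15.2). No member was called by limma in any genotype comparison or in any difference between genotypes in the immobilization effect. For TgSesn1 against WT these were 0 of 8 in basal muscle (background 0.0292%), 0 of 8 in immobilized muscle (0.0073%) and 0 of 8 for the difference in effect (0%), with 0 of 8 at an unadjusted p under 0.05 in each, where 3.63%, 3.04% and 2.93% of all genes had one. For TgSesn2 against WT they were 0 of 8 in basal (2.5%), 0 of 8 in immobilized muscle (2.94%) and 0 of 8 for the difference in effect (0.0073%), with 2, 4 and 1 of 8 at an unadjusted p under 0.05 (15.6%, 19.2% and 7.35% of all genes). For Sesn1 KO against WT they were 0 of 8 in basal (0.147%), 0 of 8 in immobilized muscle (0.947%) and 0 of 8 for the difference in effect (0.022%), with 2, 4 and 4 of 8 at an unadjusted p under 0.05 (4.64%, 14.1% and 7.98% of all genes). Those for immobilized muscle and for the difference in effect include the library labelled Sesn1 KO immobilized replicate 1. The counts at an unadjusted p were not repeated without it.

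The larger of these differences missed the threshold. In immobilized muscle Cryab was at 1675 to 4172 in TgSesn2 and 621 to 1344 in WT libraries (log2 difference 1.31, SE 0.38, limma adjusted p = 0.0602), and Hspb2 at 75.6 to 93.2 against 42.1 to 67.0 (0.60, SE 0.19, limma adjusted p = 0.0867). Both were called when the sets were fitted together (limma adjusted p = 0.0232 and 0.0377). Hspb1 was at 402 to 1162 against 310.1 to 339 (0.89, SE 0.41, limma adjusted p = 0.240), Hspb7 at 2723 to 6516 against 1763 to 2623 (0.76, limma adjusted p = 0.378), Hspb6 at 1586 to 1824 against 1020.3 to 1317 (0.58, limma adjusted p = 0.336) and Bag3 at 144 to 207 against 120.2 to 143 (0.40, limma adjusted p = 0.353). In these 6 of 8 members every immobilized TgSesn2 library was above every immobilized WT library, where 2.94% of all genes were called and 18.7% did not overlap, and Hspb3 and Hspb8 overlapped. Hspb8 was lower in immobilized TgSesn2 muscle (464 to 873 against 739.5 to 1218), a difference of -0.55 (limma adjusted p = 0.251). These TgSesn2 libraries also differed from the WT ones in summed markers. Slow fiber markers were higher (173 to 465 against 94.2 to 130) and fibroblast markers lower (362 to 749 against 757 to 1362), without overlap. Myh1 and Myh2 together (10625 to 19359 against 7324 to 12422) and the endothelial markers (266 to 359 against 227 to 266) overlapped. Their part in the differences was not tested. In immobilized Sesn1 KO muscle Hspb1 was at 358 to 1612 against 205 to 441 in WT muscle (1.15, SE 0.31, limma adjusted p = 0.0779), and without the library labelled Sesn1 KO immobilized replicate 1 the difference was 0.71 (limma adjusted p = 0.222). Without Sesn1 KO immobilized replicate 4, 3 members were called in this comparison, Hspb1 (1.43, limma adjusted p = 0.0111), Cryab (0.92, limma adjusted p = 0.0475) and Hspb2 (0.47, limma adjusted p = 0.0433). That fit kept replicate 1, which was the highest immobilized Sesn1 KO library for every member. In basal muscle Hspb7 was at 188, 236, 481 and 299 in Sesn1 KO against 116 to 182 in WT libraries, with no overlap (0.97, SE 0.23, limma adjusted p = 0.174). It was called without Sesn1 KO basal replicate 1 (1.16, limma adjusted p = 0.0294).

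Cryab and Hspb2 lie head to head on chromosome 9. In GENCODE M21 (GRCm38), Hspb2 (minus strand) spans 50751078 to 50752354 and Cryab (plus strand) 50751325 to 50756636, so that they overlap by 1030 bases, of which 252 are exonic in both genes (30.2% of the exons of Hspb2 and 17.0% of those of Cryab). The library kit is not stated to mark strand, so reads from these exonic bases cannot be told apart. The ratio of Cryab to Hspb2 within a library does not depend on the scale of the library. It was at 5.05 to 7.33 in basal, 13.0 to 17.8 in immobilized and 27.2 to 37.2 in denervated WT libraries of set 2, with no overlap between the 3 groups. On the log2 scale it rose by 1.30 on immobilization and by 2.30 on denervation (two-sided exact permutation test, p = 0.0286 each, the smallest that 4 against 4 libraries can give, adjusted p = 0.0429 over 6 comparisons). It also rose in immobilized TgSesn2 (1.91) and Sesn1 KO muscle (1.51), with the same exact p. Without the library labelled Sesn1 KO immobilized replicate 1 the groups still did not overlap (1.36, exact p = 0.0571). In set 1, WT (0.93) and TgSesn1 muscle (1.55) gave an exact p of 0.0571, the smallest that 3 against 4 libraries allow.

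The ratio of Bag3 to Hspb8, whose proteins act in one complex, moved the other way. It was at 0.320 to 0.397 in basal, 0.178 to 0.234 in immobilized and 0.0667 to 0.0917 in denervated WT libraries of set 2, again without overlap. The log2 difference was -0.86 for immobilization and -2.19 for denervation (two-sided exact permutation test, p = 0.0286 each, adjusted p = 0.0429). It was -0.57 in TgSesn2 and -0.90 in Sesn1 KO muscle with the same exact p (-0.89 without the library labelled Sesn1 KO immobilized replicate 1, exact p = 0.0571, again without overlap), and the differences in WT muscle of set 1 (-1.09, exact p = 0.114) and TgSesn1 muscle (-1.03, exact p = 0.0571) did not pass.

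**Figure D4:**
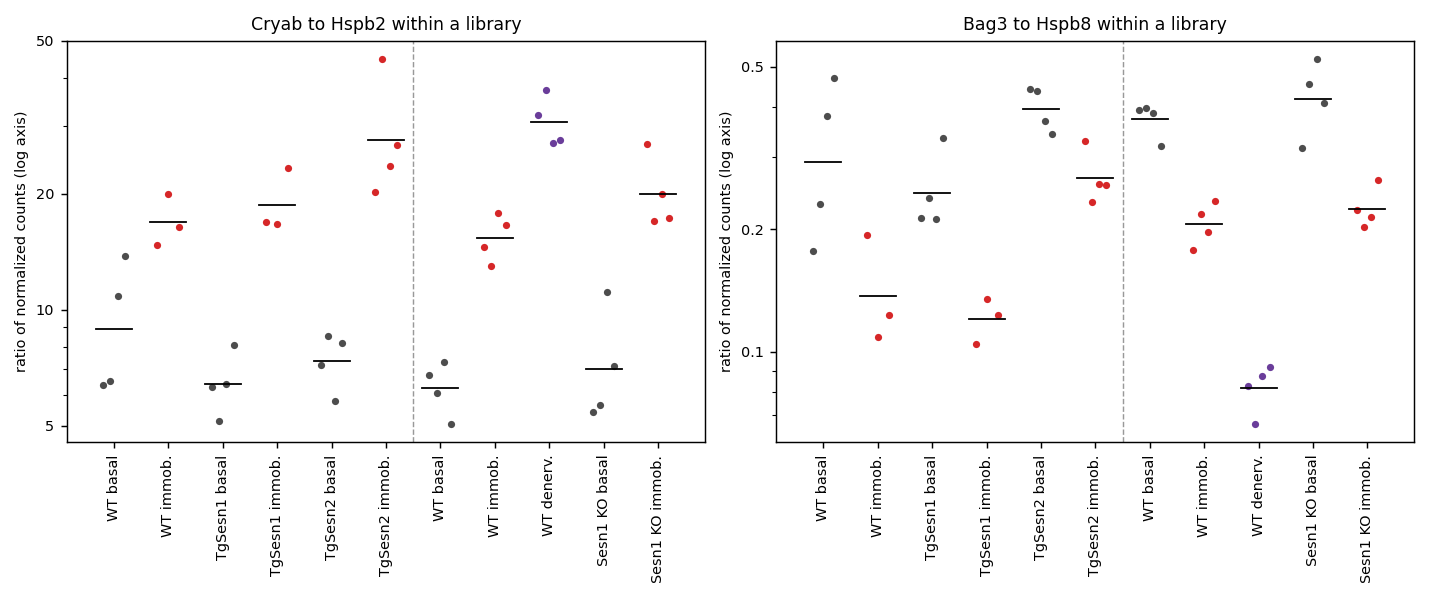
Ratio of the normalized counts of Cryab to Hspb2 (left) and of Bag3 to Hspb8 (right) within each library (log axis), 1 point per library with a bar at the geometric mean, groups as on the x axis, set 1 left of the dashed line. In WT muscle of set 2 the Cryab to Hspb2 ratio was highest and the Bag3 to Hspb8 ratio lowest after denervation.

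The members also varied together among libraries of the same group. After the mean of each group was subtracted, the log2 levels of Hspb7 and Cryab correlated at r = 0.907 over the 42 libraries and those of Hspb6 and Hspb7 at 0.827, while Hspb6 and Hspb8 gave 0.141. The points share the libraries and their scale, so these values describe the data and were not tested. Hspb7 (r = -0.761) and Cryab (-0.752) were high in libraries with little Myh4, and Hspb8 (-0.143) and Hspb3 (-0.238) followed Myh4 the least. Hspb6 varied most with the summed Myh1 and Myh2 (0.672). Cryab (0.592) and Hspb7 (0.585) were also high in libraries with a high summed level of the 5 endothelial markers. With the summed Myh1 and Myh2, Hspb7 gave 0.567 and Cryab 0.464, and with the slow fiber markers 0.560 and 0.461. Hspb6 gave 0.542 with the slow fiber markers. The part of these cells and fiber types was not tested.

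**Figure D5:**
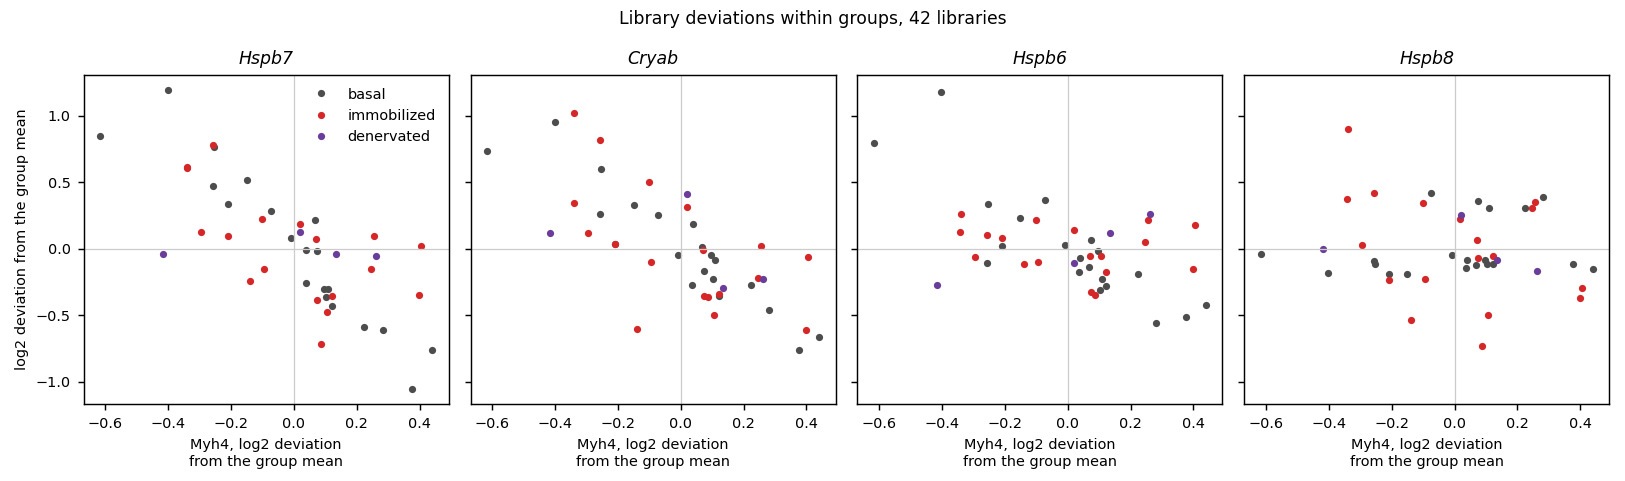
Deviation of each library from the mean of its group on the log2 scale, for Myh4 (x axis) and for Hspb7, Cryab, Hspb6 and Hspb8 (y axis), 42 libraries in each panel, basal grey, immobilized red and denervated purple. Hspb7 and Cryab were higher where Myh4 was lower (r = -0.761 and -0.752), which was less so for Hspb8 (-0.143).

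Genes whose pattern was most like that of a member were taken by Pearson correlation over the 42 libraries, centred on the mean of the set, among 7148 genes with a mean of at least 10. The nearest were Tnfrsf12a (r = 0.975), Psmd11 (0.960) and Tubb6 (0.957) for Hspb1, which encode the receptor Fn14, a proteasome subunit and a tubulin. For Hspb7 they were Myl12a (0.973), Cd68 (0.961) and Ankrd2 (0.959), and for Cryab Ankrd2 (0.949), Actr1b (0.947) and Myl12a (0.934), where Ankrd2 is a stretch-responsive muscle ankyrin repeat gene and Cd68 a macrophage marker. Group means were not subtracted here, so differences between basal and disuse groups enter all these values. With group means subtracted, Hspb7 followed the summed macrophage and leukocyte markers at r = 0.129. Hspb6 was nearest to Dnaja4 (0.934), Actn2 (0.917) and Lmcd1 (0.900), Actn2 being a Z-disc actinin. Hspb8 was nearest to Ctps (0.932), Zwint (0.913) and Morf4l2 (0.908), and Hspb3 to Gga2 (0.904), Tor3a (0.884) and Tcta (0.873). Hspb2 (Adprhl1, 0.846, Cystm1, 0.834, and Hmga1, 0.827) and Bag3 (Ppme1, 0.849, Prosc, 0.839, and Hspa8, 0.811) had less similar neighbours.

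The other genes of the pathway were described from lists. Of 12 partners of Bag3 in chaperone-assisted selective autophagy, 5 rose and 1 fell in immobilized WT muscle of set 2, 4 rose and 3 fell in set 1, and 6 rose and 4 fell on denervation, with median log2 changes of 0.23, 0.24 and 0.32. Of all genes, 33.9%, 29.3% and 55.5% were called in these 3 comparisons, which is the background for all the lists. Flnc, the muscle filamin that is a client of Bag3, rose in all 3 (2.43, 1.04 and 1.67 for immobilization in set 2, in set 1 and denervation; limma adjusted p = 1.25e-07, 0.0208 and 2.86e-06), as did Sqstm1, an autophagy receptor (1.32, 0.93 and 1.55; limma adjusted p = 1.33e-06, 0.00120 and 2.47e-08). Synpo2, the adaptor that joins Bag3 to the autophagosome membrane, fell on denervation (-1.72, limma adjusted p = 6.65e-07) and in set 1 (-1.43, limma adjusted p = 0.000151), and its change in set 2 was -0.09 (limma adjusted p = 0.769). Flna fell on denervation (-1.01) and rose in set 1 (0.77), and Tsc1 fell in set 1 (-0.48) and rose in set 2 (0.55).

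Among 18 heat shock factors and genes they induce, 3 rose and 3 fell in immobilized muscle of set 2, 2 rose and 2 fell in set 1, and 10 rose and 1 fell on denervation, with medians of 0.07, 0.09 and 0.44. Denervated against immobilized muscle gave 12 higher and 0 lower (background 38.9% called, 20.5% higher). Hsp90aa1, the inducible Hsp90, rose in each comparison (0.64, 1.24 and 1.84; limma adjusted p = 0.0369, 0.0177 and 8.79e-07), and Hsph1, an Hsp110, rose by 1.41 on denervation (limma adjusted p = 6.64e-09). Hspa8 rose on denervation (0.81, limma adjusted p = 9.11e-05). Hsf2 rose in all 3 (0.95, 0.54 and 0.73). Fkbp4 fell in all 3 (-0.54, -0.44 and -0.40). Its fall on denervation was smaller than the 0.47 that scaling the library sums would add. Hspd1, the mitochondrial Hsp60, fell in set 1 (-0.47) and set 2 (-0.43) and rose on denervation (0.39), and Serpinh1 fell in set 2 (-0.70) and was at 0.81 in set 1 (limma adjusted p = 0.0734). Hspa1a and Hspa1b, the inducible Hsp70 genes whose near-identical copies share reads, were not called (0.73 and 0.56 in set 2, -0.03 and 0.30 in set 1, -0.08 and -0.26 on denervation).

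Of 14 intermediate filament and Z-disc genes, 4 rose and 2 fell in set 2, 2 rose and 5 fell in set 1, and 3 rose and 8 fell on denervation (medians 0.25, -0.20 and -0.58). Beside Flnc, which is also in this list, Actn2 rose by 1.12 on immobilization in set 2, Vim by 1.43 in set 1 and Sync, which binds desmin, by 0.74 in set 2 and 1.30 on denervation. Myoz1 fell in all 3 (-0.60, -0.96 and -1.90), Actn3 likewise (-0.64, -0.75 and -0.63), Ttn in set 1 (-1.03) and on denervation (-0.95), and Actn2 (-0.89) and Myot (-1.40) on denervation. Des, the desmin gene, rose on immobilization in set 2 (0.93, limma adjusted p = 1.80e-07) and on denervation (0.28, limma adjusted p = 0.0129), and was at 0.56 in set 1 (limma adjusted p = 0.0513); it, Hspa8 and the Hsp70 genes were chosen after their values were seen. Of the 5 other BAG genes, 0 were called in immobilized WT muscle, and on denervation Bag6 rose (0.41) and Bag1 fell (-0.37). The fall of Bag1 was smaller than the 0.47 that scaling the library sums would add. Of the further genes listed by symbol as small heat shock proteins, only Hspb11 was in the table. It was not called in these comparisons (0.23 to 0.31, lowest limma adjusted p = 0.185). Its place in the family rests on the symbol alone and was not examined.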

How the data were processed

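The members and the gene lists were chosen with earlier results of these data known. Per the labels and methods, the authors trimmed reads of NEBNext Ultra libraries with cutadapt 1.7.1, estimated abundances with RSEM 1.2.20 on mouse transcripts (GRCm38) and normalized them with limma. The values as deposited by the authors are a signal of normalized counts on a linear scale, all columns of which were used. Genes that reached 1 in any library of the set (13705 in set 1, 13629 in set 2) were fitted in limma 3.58.1 (R 4.3.3) as log2(value + 1), with a coefficient for each group, all groups of a set together and a trend in eBayes. The difference between the sets was fitted over all 42 libraries. Two-sided p-values were adjusted by Benjamini-Hochberg within each comparison. On simulated data the fit recovered 91 of 100 genes changed by a log2 of 1 for denervation (7 false calls among 13345 genes) and 71 of 100 for immobilized WT muscle of set 1 (5 among 13426). The simulated libraries had independent noise and few changed genes, none of them low. These figures thus need not hold for the measured libraries. Ratios were tested by exact permutation with scipy 1.17.1. Pearson's r between replicates was 0.959 to 0.991 (log2), and none were identical. Library numbers were checked for pairing by the correlation of deviations from group means. Only in TgSesn1 muscle did all 3 same-numbered basal and immobilized libraries exceed 0.1 (0.183 to 0.230), a hint from the data and not from the labels, and there the replicate block changed no call. The named genes are the members, Sesn1, Sesn2, the 3 genes most like each member, and from each list the called genes with the 2 largest increases and decreases in WT muscle. The values of 1 gene of these lists are not reported here. Alternatives were another pseudocount and filter, other normalizations, other fits and leaving out each library. The list counts and ratio tests without the library labelled Sesn1 KO immobilized replicate 1 were added after seeing the data.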

Additional observations from a re-analysis of the deposited data

Results flagged for a closer look

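In 8 of 72 tests of a member in a group of 4 libraries, the gap between the highest or lowest library and its nearest neighbour, divided by the range of the group, was above Dixon's critical value. Chance flags about 1 in 20 such groups. For Bag3 this was the library labelled Sesn1 KO immobilized replicate 1 (411 normalized counts, gap over range 0.927). For Hspb6 it was WT basal replicate 4 (1752, 0.842) and TgSesn2 basal replicate 2 (1355, 0.835) of set 1. For Hspb8 it was WT basal replicate 1 (625, 0.864) and TgSesn1 basal replicate 3 (733, 0.892) of set 1 and WT basal replicate 4 of set 2 (377, 0.833). For Hspb7 it was WT denervated replicate 2 (2083, 0.922), and for Hspb3 the same library, as the lowest (10.7, 0.830).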

How the results depend on the processing

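Across pseudocounts, filters, normalizations and fits, 258 counts of called members or ratio results stayed the same or close, and 3 moved. A count could shift by more than 1 member and still be taken as close, without regard to which members were called. For the changes of single members, 1113 kept their sign and call, 9 turned in sign, 20 gained a call and 16 lost it. With library sums scaled to 1000000, 8 members were called in immobilized against basal TgSesn2 muscle (5 as reported). With both sets in 1 fit, 2 members were called in TgSesn2 against WT immobilized muscle (0 as reported), and with quantile normalization 7 in denervated against immobilized muscle (4 as reported). Leaving out 1 library gave 0 to 1 called members for Sesn1 KO against WT basal and 0 to 3 for immobilized muscle. Signs turned for Bag3 in immobilized WT muscle of set 1 (0.055 with quantile normalization, 0.25 with scaled sums, -0.23 to 0.083 with 1 library left out), Hspb2 in TgSesn1 muscle (0.10, 0.25 and -0.14 to 0.044), Bag3 in TgSesn1 muscle (0.11 with scaled sums, -0.40 to 0.084), Hspb2 in WT muscle of set 1 (-0.048 to 0.28), Hspb3 on denervation (0.16 with scaled sums) and Hspb7 in denervated against immobilized muscle (0.65 with quantile normalization, limma adjusted p = 0.0194, and 0.080 with scaled sums). The cause was not tested. With a replicate block, Bag3 in WT muscle of set 1 was at 0.0079, Cryab there was called (1.09, limma adjusted p = 0.0414) and Bag3 in WT muscle of set 2 lost its call (0.48, limma adjusted p = 0.0523). Outside TgSesn1 muscle the samples share only a number (median same-number correlations -0.124 to 0.107), and the block changed no other call in the immobilization and denervation comparisons. Depth is unknown and could not be weighed. With 3 or 4 libraries a group, exact tests cannot go below 0.0571 or 0.0286.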

Other observations

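In the modified genotypes the pathway genes were counted in the same way for immobilized against basal muscle, where 37.1% of all genes were called in Sesn1 KO, 34.7% in TgSesn1 and 30.7% in TgSesn2 muscle. Of the 12 partners of Bag3, 6 rose and 2 fell in Sesn1 KO muscle (median log2 change 0.39 against -0.03 over all genes), 4 rose and 2 fell in TgSesn1 muscle (-0.05) and 6 rose and 2 fell in TgSesn2 muscle (0.24). Of the 18 heat shock factors and genes they induce, 8 rose and 1 fell in Sesn1 KO muscle (0.23), 0 rose and 4 fell in TgSesn1 muscle (-0.27) and 1 rose and 2 fell in TgSesn2 muscle (0.06). Of the 14 intermediate filament and Z-disc genes, 5 rose and 2 fell in Sesn1 KO muscle (0.28), 5 rose and 4 fell in TgSesn1 muscle (-0.02) and 2 rose and 5 fell in TgSesn2 muscle (-0.02). Of the 5 other BAG genes, 1 rose in Sesn1 KO muscle, 1 fell in TgSesn2 muscle and 0 were called in TgSesn1 muscle. Tested directly against WT muscle, no gene of these lists was called in TgSesn1 or TgSesn2 muscle, and 1 partner of Bag3, Map1lc3a, was called higher in immobilized Sesn1 KO muscle (0.39, limma adjusted p = 0.0483). This call was lost without the library labelled Sesn1 KO immobilized replicate 1 (0.36, limma adjusted p = 0.164), while Hsp90aa1 was then called higher (0.50, limma adjusted p = 0.0447, against 0.89 and 0.0674 with it). Both genes were chosen after their values were seen. Without that library 6 partners of Bag3 rose and 1 fell on immobilization of Sesn1 KO muscle (median 0.35), 7 heat shock genes rose and 1 fell (0.16), 5 intermediate filament and Z-disc genes rose and 2 fell (0.22) and 0 of the other BAG genes were called, where 35.3% of all genes were. These counts, chosen after seeing the data, were not repeated without other libraries.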
